A study of Mus musculus with 32 samples.

Results

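The genes described are 50 components of the mitotic machinery of the mouse: the kinases, motors, kinetochore and spindle proteins, checkpoint and ubiquitin ligase factors and chromosome proteins that a cell uses to divide, with the transcription factor Foxm1. They were taken as a list of 50 symbols, and every non-control probe that the arrays name by one of these symbols was collected, which gave 71 probes, with several probes for 17 of the genes. Liver RNA was measured on 32 arrays, 1 per liver sample, in 8 groups of 4 that crossed diet, drug and time around a 70% partial hepatectomy (PH). All mice were C57/BL6 males, 8 weeks old at the start by the study's methods, and received 1 of 2 diets for 3 weeks: chow, or a diet deficient in methionine and choline (MCD), which gives a fatty, inflamed liver. The C group received chow alone, the MCD group the deficient diet alone, the C+Fc-GLP-1 group chow with a GLP-1 receptor agonist during the last 2 weeks, and the M+Fc-GLP-1 group the deficient diet with the same agonist during the last 2 weeks. The other 4 groups were sampled 2 weeks after PH. By the labels, both MCD arms kept their diet after surgery and M+Fc-GLP-1 its treatment, while for C+Fc-GLP-1 after PH the source names give Fc-GLP-1 before surgery and a dual agonist after it. The other source names call the drug Fc-GLP-1, the growth protocol describes an agent acting at both the glucagon and GLP-1 receptors, given at 4.4 mg/kg/day, and the methods give Fc-GLP-1 at 10 nmol/kg every 2 days, so the agent is called Fc-GLP-1 here with that conflict unresolved. The methods state that diet and Fc-GLP-1 continued in similar form after PH, and the paper reports the drug in plasma of both treated groups then. If, as the source names give, the 2 drug arms received different agents after PH, diet and agent cannot be told apart in the comparisons between them after PH or of their changes over PH. In that case time and agent cannot be told apart within C+Fc-GLP-1. Livers sampled after PH come from mice that survived the surgery, and the labels do not say which samples before and after PH, if any, came from the same mouse. The paper took its values before PH from liver removed at surgery, so a mouse may have given both samples.

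Cells enter mitosis when cyclin-dependent kinase 1 and its cyclins become active, condense and attach their chromosomes through kinetochores to a bipolar spindle, and wait under the spindle checkpoint until the anaphase-promoting complex (APC/C) with its activator Cdc20 triggers separation. Most of these genes are transcribed only late in the cell cycle, so their RNA is low in a tissue at rest such as adult liver and rises when a share of its cells divides. After partial hepatectomy the remaining hepatocytes and then the non-parenchymal cells of the liver re-enter the cycle until mass is restored, and inflamed livers also hold dividing immune cells.

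Much of this late timing is set in the promoter, by the cell cycle genes homology region (TTTGAA) and by CCAAT boxes lying nearby. RefSeq promoters of 300 bases (250 before and 50 after the start, GRCm38.p6) were found for 42 of the 50 genes, 45 promoters in all. The 8 without an entry were Aurkb, Cdca2, Dlgap5, Foxm1, Kif20a, Pbk, Spc24 and Tpx2. Read on both strands, TTTGAA stood in 34 of the 45 (75.6%), against 17.9% of all 32851 promoters of this length. CCAAT stood in 29 (64.4%), against 37.4% of all, and both stood in 26 (57.8%), against 6.95% of all, with 1 place where the motifs overlapped. Of the 44 TTTGAA matches, 34 began within 50 bases of the start. The 11 genes with an entry and no TTTGAA were Birc5, Bub1, Cenpe, Mad2l1, Melk, Ncaph, Nek2, Nuf2, Nusap1, Pttg1 and Trip13. The 150 bases before the start are shown for 5 genes whose levels are given below array by array or by count (Cdc20 at chr4:118437344-118437493, minus strand, Ube2c at chr2:164769779-164769928, plus strand, Mki67 at chr7:135716380-135716529, minus strand, Top2a at chr11:99024190-99024339, minus strand, and Cdk1 at chr10:69352913-69353062, minus strand), and for Pttg1 (chr11:43425982-43426131, minus strand), the member that moved least with the others, as a contrast. Each is written in the gene's own direction, with the motifs in capitals as TTTGAA or CCAAT, or as TTCAAA or ATTGG where the match lies on the other strand.
Cdc20: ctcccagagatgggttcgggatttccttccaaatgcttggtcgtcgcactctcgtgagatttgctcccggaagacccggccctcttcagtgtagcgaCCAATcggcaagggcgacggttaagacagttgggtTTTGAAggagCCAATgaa
Ube2c: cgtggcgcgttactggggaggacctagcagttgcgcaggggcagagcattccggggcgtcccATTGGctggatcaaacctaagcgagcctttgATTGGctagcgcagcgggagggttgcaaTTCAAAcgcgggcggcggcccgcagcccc
Mki67: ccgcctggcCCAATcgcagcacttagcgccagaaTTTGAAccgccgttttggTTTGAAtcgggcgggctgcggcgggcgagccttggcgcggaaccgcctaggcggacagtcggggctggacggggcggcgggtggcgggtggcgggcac
Top2a: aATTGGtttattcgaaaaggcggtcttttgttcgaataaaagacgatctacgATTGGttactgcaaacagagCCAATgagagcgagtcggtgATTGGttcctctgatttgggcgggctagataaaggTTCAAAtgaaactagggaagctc
Cdk1: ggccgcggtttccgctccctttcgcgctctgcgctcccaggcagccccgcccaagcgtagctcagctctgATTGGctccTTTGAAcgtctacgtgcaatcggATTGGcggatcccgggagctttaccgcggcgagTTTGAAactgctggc
Pttg1: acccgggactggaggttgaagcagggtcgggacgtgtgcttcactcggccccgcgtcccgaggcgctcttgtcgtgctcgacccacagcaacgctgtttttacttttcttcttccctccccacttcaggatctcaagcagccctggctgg
The first 5 genes each hold at least 1 TTTGAA within this stretch, and the Pttg1 stretch holds neither motif. Cenpe, the member that moved most with the others (correlation 0.95, given below), has no TTTGAA either. Of the other members with a correlation under 0.5, Cep55, Cenpa, Ndc80, Hmmr, Cdk1 and Kif20b have TTTGAA, and Spc24 has no promoter entry. How the motif relates to moving together was not tested. A match describes the letters only, and no binding was measured here.

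Levels are given as log2 of the scanner's processed signal minus the 75th percentile of that array, so a level of 0 equals the array's 75th percentile and levels of different genes are not compared. A gene entered the test when 1 of its probes rose well above background throughout some group (4 of 4 arrays), and 40 of the 50 genes did. Each of these 40 was above background on all 4 arrays of the MCD group before PH, whereas 23 of the 40 were so in the C group. For 5 genes (Cdk1, Bub1b, Kif11, Kif4 and Melk) the MCD group before PH was the only group to pass them, so counts over the 40 favour that group by construction. The 17 genes above background on all 32 arrays do not depend on this choice, and neither does the same fit without the filter, in which 49 of the 50 could be tested, and both are given beside the counts. Aurkb, the kinase of the chromosomal passenger complex, was above background on no array. Bub1, Kif23, Kif2c, Kif15, Ttk, Cenpf, Dlgap5 and Ncapg were never above it on all 4 arrays of a group, and for Spc25 a spot was set aside on 1 array. Probe positions here are in mm9, such as chr7:142881591-142881650 for Mki67 and chr4:118105534-118105593 for Cdc20, both on the minus strand.

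The 75th percentile of raw intensity ran from 209 to 778 over the arrays, and 36.2% to 69.1% of probes were above background. The C and MCD arrays before PH shared a slide, as did the arrays of both Fc-GLP-1 groups before PH and again after PH, whereas C and MCD after PH had a slide each on another scanner. Only the diet comparisons on shared slides are free of slide differences, and in all others slide and group cannot be told apart. Brightness still differed with diet there: before PH the 75th percentile was 209 to 395 in C and 442 to 564 in MCD. Under Fc-GLP-1 it was 222 to 255 on chow and 268 to 338 on MCD before PH. After PH these ranges overlapped (278 to 568 and 213 to 472). What brightness contributes was not tested. The tissue label holds, with hepatocyte markers high on every array (summed level 11.49 to 12.85). In whole liver, fewer cells of a type and less RNA per cell cannot be told apart.

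Over the 8 groups, 24 of the 40 genes had their highest mean in MCD before PH and 9 in C after PH, while 24 had their lowest mean in C before PH and 10 in C+Fc-GLP-1 before PH. As all 40 were above background throughout MCD before PH, this tally favours that group by construction. The median level of the 40 genes on each array was -3.14, -2.55, -2.89 and -2.94 in C before PH, and -0.29, -0.04, -0.12 and -1.17 in MCD before PH. It was -2.54, -2.57, -2.64 and -2.84 in C+Fc-GLP-1 before PH, and -0.42, -1.42, -2.87 and -1.21 in M+Fc-GLP-1 before PH. The 2 chow groups before PH were thus low and tight, MCD was high on every array, and M+Fc-GLP-1 ran from a level near MCD down to a level like chow. After PH the medians were 0.35, -1.28, -2.24 and -0.50 in C, -1.44, -0.20, 0.37 and -1.42 in C+Fc-GLP-1, -1.02, -1.04, -1.57 and -1.31 in MCD, and -2.48, -2.23, -2.57 and -1.29 in M+Fc-GLP-1. The 2 chow groups had the widest spread among the groups after PH, and 3 of the 4 M+Fc-GLP-1 arrays lay below every C+Fc-GLP-1 and MCD array.

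**Figure D1:**
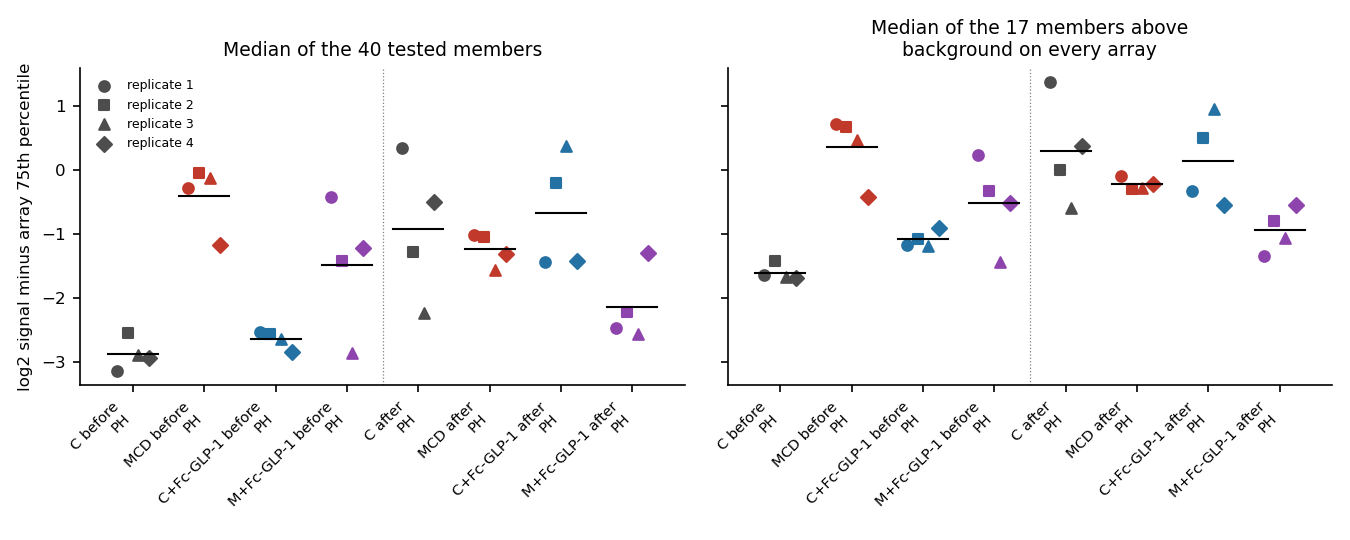
Median level of the 40 tested genes (left) and of the 17 genes above background on all 32 arrays (right) on each array, as log2 signal minus the array's 75th percentile, with 4 arrays per group (marker shape: replicate) and a bar at the group mean of the medians. Before PH all 4 MCD arrays lie above all C arrays in both panels, and after PH the C arrays spread from -2.24 to 0.35 in the left panel.

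The first comparison asks what the MCD diet did to the resting liver, on 1 slide and with no drug. The mitotic genes were higher in MCD than in C almost throughout: 29 of the 40 rose and 0 fell, at an adjusted p under 0.05 (limma, Benjamini-Hochberg over all 21010 genes). Over all genes tested, 26.5% were called, 10.9% higher and 15.5% lower. The median log2 difference of the 40 was 2.18, against -0.13 over all genes, and 37 of the 40 were positive. Of the 17 genes above background on every array, 12 rose and 0 fell, with a median of 1.87, where 11.5% of all 13942 such genes rose and their median was -0.05. Without the filter 30 of 49 rose and 0 fell, with a median of 1.87, where 5.82% of all genes rose. The C and MCD arrays did not overlap, MCD higher, for 27 of the 40, against 11.3% of all genes. Centring arrays on their median in place of the 75th percentile turned the share of higher calls among all called genes from 41.4% to 76.8%.

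Genes of chromosome structure were among the clearest, with 4 of the 6 tested called higher. Mki67, the Ki-67 protein that coats mitotic chromosomes, had levels of -2.12, -1.46, -1.67 and -1.84 in C and 1.64, 1.60, 1.44 and 0.20 in MCD. The groups did not overlap, although MCD replicate 4 lay far below its group. The difference was 2.99 ± 0.57 (SE, n = 4 per group, adjusted p = 0.000356), or 7.96-fold. Top2a, the topoisomerase that untangles sister chromatids, stood at -6.68, -4.98, -6.52 and -5.80 in C, where it was not well above background on any array, and at -1.54, -1.70, -3.32 and -3.96 in MCD. Its difference was at least 4.44-fold, a bound set by the dimmest probe signals above background on the C arrays (adjusted p = 0.000139). The condensin subunit Ncaph (1.57) and the cohesin protector Cdca5, also called sororin (2.32), rose as well. Ncapd2, another condensin subunit, had a difference of 0.42, and Cdca2, which targets a phosphatase to chromatin, of 1.23, neither past the threshold.

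Of the mitotic kinases, 5 of the 6 tested rose. Cdk1, which drives entry into mitosis, was not well above background on any C array (-5.15, -5.96, -5.83 and -5.25) and stood at -2.72, -2.66, -2.64 and -4.03 in MCD, at least 3.6-fold higher (adjusted p = 0.00294). Plk1, the polo kinase of centrosomes and kinetochores, was at -1.91, -2.22, -2.70 and -2.93 in C and at 0.96, 1.30, 0.70 and -0.76 in MCD. MCD replicate 4 was again the lowest of its group for both kinases, and neither gene's groups overlapped. The Plk1 difference was 2.99 ± 0.62 (adjusted p = 0.000777). Pbk, a kinase of dividing cells, had levels of -6.21, -5.31, -6.85 and -6.46 in C, all below background, and -1.13, -1.29, -1.19 and -3.39 in MCD, at least 8.66-fold higher (adjusted p = 0.000176). Aurka, the spindle pole kinase, rose by 2.23 and Melk by at least 3.78-fold, while the centrosome kinase Nek2 had a difference of 1.24 that did not pass.

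Genes that act with the APC/C rose except for 1 substrate. Cdc20 stood at -0.97, -1.07, -1.77 and -1.64 in C and at 2.80, 3.11, 2.75 and 0.55 in MCD. No C array came near the MCD arrays, and the difference was 3.66 ± 0.71, or 12.7-fold (adjusted p = 0.000431). Ube2c, the conjugating enzyme that starts ubiquitin chains on APC/C substrates, rose by 2.86 ± 0.58, and Cdca3, an adaptor for mitotic entry, by 2.53 ± 0.59. Pttg1, the securin that holds separase inactive, had levels of 4.17, 5.28, 5.39 and 4.73 in C and 4.24, 4.47, 4.64 and 4.22 in MCD, a difference of -0.50 ± 0.26 (adjusted p = 0.153) with overlapping groups. A second, dimmer Pttg1 probe differed by -0.25.

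Spindle checkpoint and kinetochore genes were more mixed. Mad2l1, which holds Cdc20 in check at unattached kinetochores, rose by 1.87 ± 0.33 (adjusted p = 0.000147), although its 2 dimmer probes differed by 0.77 and 0.81. Trip13, which remodels that inhibitor, rose by 0.86. Bub1b, the BubR1 checkpoint protein, was at -4.68, -2.95, -4.67 and -5.24 in C and at -2.23, -2.77, -2.87 and -3.62 in MCD, where the 1 higher C array overlapped MCD. Its difference of 1.51 ± 0.58 had an adjusted p of 0.0520, just outside the threshold. At the kinetochore, Cenpe, the motor that carries chromosomes to the spindle equator, rose by 3.58 and Nuf2 by 2.13, whereas Ndc80, the partner of Nuf2 in the microtubule-binding complex, stood at -3.22, -1.43, -4.54 and -2.14 in C and -3.58, -3.11, -3.65 and -3.09 in MCD, a difference of -0.53 ± 0.64. Spc24, of the same complex, differed by -0.50 ± 0.32 and the centromeric histone Cenpa by 0.66, and neither passed. Spc25, the fourth subunit of that complex and outside the fit, had levels of 1.93, 1.49, 0.77 and 1.10 in C and 2.56, 2.76, 2.94 and 2.99 in MCD, without overlap and without a test.

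The motors, spindle assembly factors and cytokinesis proteins were mostly higher too. Kif11, the motor that pushes spindle poles apart, had levels of -5.17, -4.71, -6.06 and -6.27 in C, above background on 1 array, and of -3.73, -3.51, -3.08 and -4.72 in MCD. The lowest MCD array fell just below the highest C array, and the difference was 1.79 ± 0.46 (adjusted p = 0.00483). Kif20a, needed for cytokinesis, rose by 3.06, Kif20b by 2.05 and the chromokinesin Kif22 by 1.92, while Kif4 (1.41) did not pass. Tpx2, which activates Aurora A on the spindle, was at -4.92, -3.94, -5.85 and -5.76 in C and at -0.98, -0.56, -1.05 and -2.77 in MCD, again apart, a difference of 3.78 ± 0.80 (adjusted p = 0.00102). The spindle midzone protein Prc1 rose by 3.56 and Nusap1 by 2.26, with Hmmr at 0.68 and not past the threshold. Anln, the anillin of the contractile ring, stood at -5.39, -4.07, -3.97 and -3.51 in C and at -0.96, -0.44, -2.02 and -1.42 in MCD, a difference of 3.03 ± 0.82 (adjusted p = 0.00703). Ect2 (2.70) and Racgap1 (2.37), which direct the ring, rose, and Cep55, the abscission protein, differed by 0.32. Both tested members of the chromosomal passenger complex, Birc5 (survivin, 2.62) and Cdca8 (borealin, 1.73), rose.

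Foxm1, the transcription factor of late cell cycle genes, had levels of -3.38, -3.10, -3.90 and -3.01 in C and -0.997, -0.95, -1.16 and -2.55 in MCD. The groups did not overlap and the difference was 1.93 ± 0.55 (adjusted p = 0.00988). Aurkb (-7.30 to -6.16 in C, -7.17 to -6.50 in MCD), the condensin subunit Ncapg (-7.03 to -5.86 and -7.23 to -6.52) and the checkpoint kinase Ttk (-6.80 to -5.57 and -6.47 to -4.54) were below background on all 8 of these arrays. MCD replicate 4 was the lowest of its group for 35 of the 40 genes, against 21.7% of all genes. Leaving out any 1 of the 8 arrays left 27 to 31 of the 40 called.

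**Figure D2:**
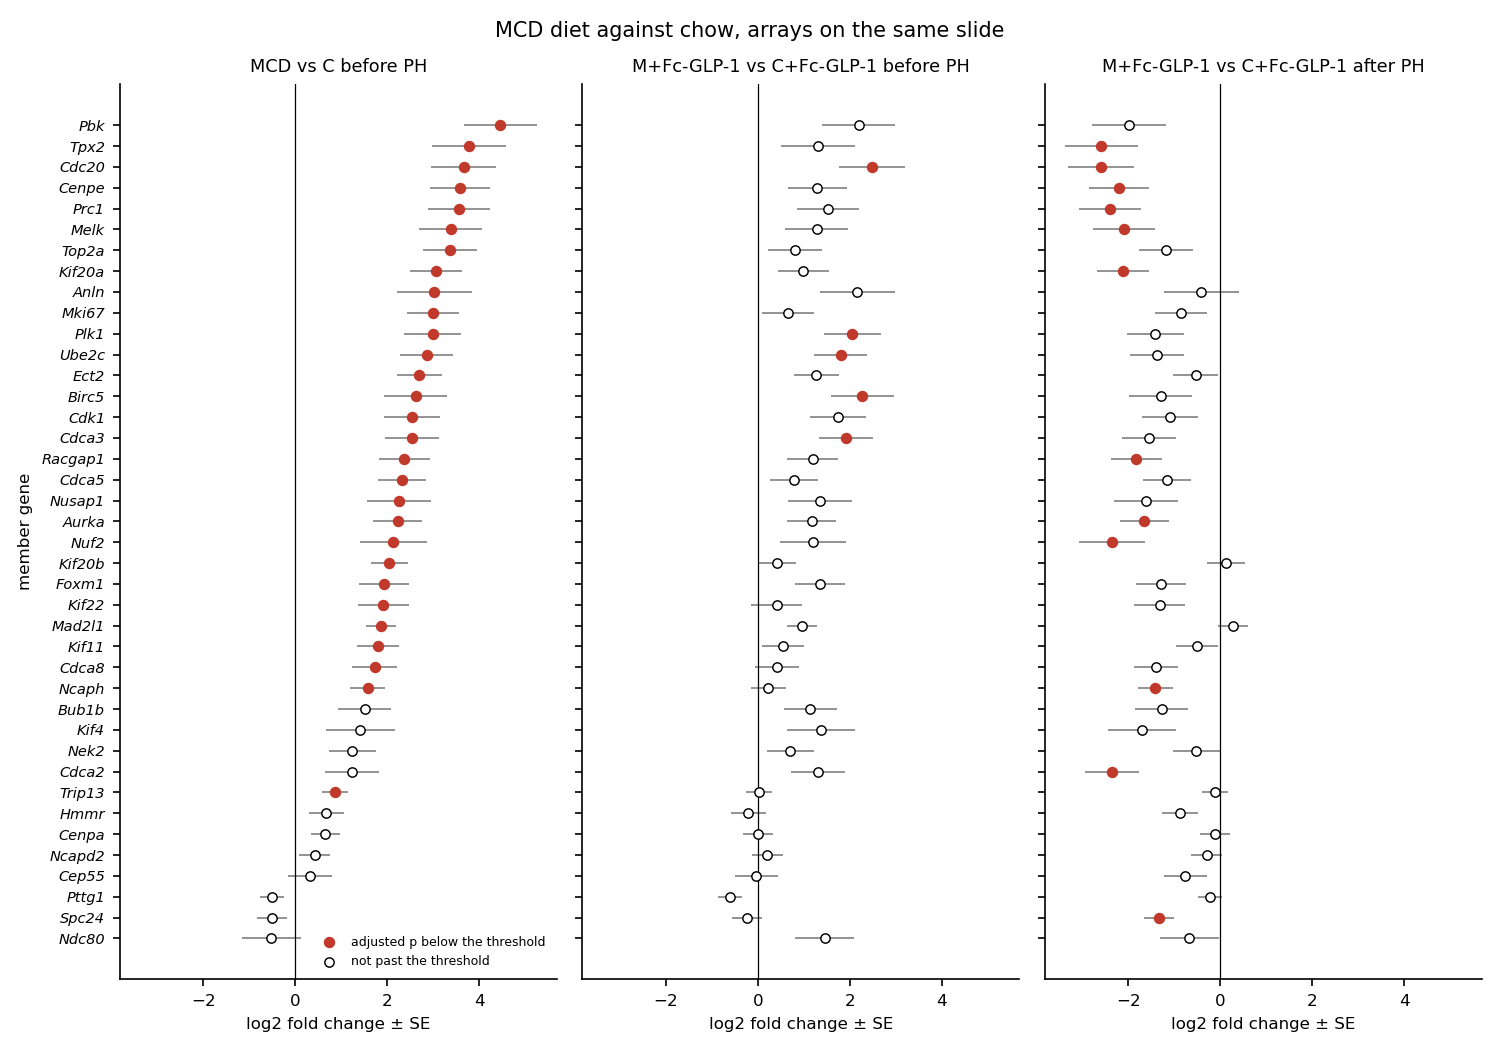
Log2 difference of MCD against chow ± SE for each of the 40 tested genes in the 3 diet comparisons whose arrays shared a slide, ordered by the comparison before PH without drug, with filled points past the adjusted threshold. Most genes lie right of 0 before PH without drug (29 called), fewer are called under Fc-GLP-1 before PH (5 higher), and most lie left of 0 under Fc-GLP-1 after PH (12 lower).

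Other cell cycle genes, from lists set beside the 50, moved with them in part. Of the 5 tested mitotic and S-phase cyclins, 4 rose, among them Ccnb1 (3.20 ± 0.73) and Ccna2 (2.33 ± 0.59), the partners of Cdk1 and Cdk2. Of 21 tested DNA replication genes, 10 rose and 0 fell, such as the helicase subunit Mcm2 (2.18) and the clamp Pcna (1.02). Of the 10 inhibitors, 6 rose, such as Cdkn3 (2.80), and the G1 cyclin Ccnd1 rose by 3.18 while Ccnd3 fell by 0.86 on the log2 scale.

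Cell type markers also differed between these groups. The summed level (log2 of the summed signals of a marker list) of Kupffer cell and macrophage markers was 5.33 to 6.18 in C and 6.24 to 7.64 in MCD, with 6 of 8 markers called higher. Neutrophil markers were at 2.25 to 2.97 in C, where 1 of the 8 was above background on no array, and at 2.51 to 4.59 in MCD, with S100a8 and S100a9 higher. Hepatocyte markers were lower, at 12.25 to 12.85 in C and 11.67 to 11.93 in MCD, with 3 of 7 called lower. Within MCD the order differed: replicate 2 had the highest median of the mitotic genes (-0.04) with the lowest macrophage (6.24) and neutrophil (2.51) levels of its group, and replicate 4 the lowest (-1.17) with a macrophage level of 7.46. The part of these cells in the higher mitotic genes was not tested.

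Adding Fc-GLP-1 to chow before PH left the mitotic genes near the C level. Of the 40, 0 were higher and 1 lower, with 2.09% of all genes called (0.961% higher, 1.13% lower), and the median difference was 0.08 against -0.04 over all genes. The 1 called gene was Ndc80, at -4.81, -6.73, -4.52 and -5.87 in C+Fc-GLP-1, where no array was well above background, against the C levels above. The highest C+Fc-GLP-1 array only just overlapped the lowest C array. The difference was -2.65 ± 0.64 (adjusted p = 0.0279), at least 3.30-fold lower, and its adjusted p ran from 0.00981 to 0.122 over 16 alternatives, past the threshold no longer without C replicate 1, 2 or 4 or C+Fc-GLP-1 replicate 2 or 4. The C+Fc-GLP-1 levels of Cdc20 were -1.98, -1.21, -1.51 and -1.67, within the range of C or just below it. Without the filter Ndc80 was again the 1 called of 49 (0.55% of all genes lower). Slide and drug cannot be told apart here.

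With Fc-GLP-1 on the MCD diet before PH, all 40 genes had lower means than in MCD alone, but only 1 passed the test. That was Kif20b, a motor of late mitosis and cytokinesis, at -1.37, -1.77, -1.17 and -2.02 in MCD and -3.31, -2.50, -3.69 and -2.58 in M+Fc-GLP-1. These groups did not overlap, and the difference was -1.44 ± 0.41 (adjusted p = 0.0317), a call lost, with adjusted p up to 0.112, without MCD replicate 1, 2 or 3 or M+Fc-GLP-1 replicate 1 or 3. Over all genes 7.22% were called, 4.43% higher and 2.78% lower. The median of the 40 was -1.0, against 0.10 over all genes, and 15 of the 40 had an unadjusted p under 0.05, against 24.1% of all genes. Of the 17 genes above background everywhere, 0 were called, and their median was -0.87. Without the filter 1 of 49 was higher, Ncapg, which was below background in both groups, and 2 were lower, Kif20b and Mki67, where 17% of all genes were higher and 2.42% lower. As the filter rests on MCD being high, and MCD arrays enter this comparison, the uniform sign over the 40 is not independent of which genes could be tested.

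The M+Fc-GLP-1 livers differed widely in single genes. Mki67 levels in M+Fc-GLP-1 were 0.56, -0.06, -1.69 and -0.69, against 1.64, 1.60, 1.44 and 0.20 in MCD. Only M+Fc-GLP-1 replicate 1 reached above the lowest MCD array, and the difference was -1.69 ± 0.57 (adjusted p = 0.0654). Cdc20 was at 2.26, 1.25, -1.44 and 1.48 in M+Fc-GLP-1, so that 3 arrays lay inside the MCD range and replicate 3 lay with chow, a difference of -1.41 ± 0.71 (adjusted p = 0.221). Replicate 3 was the lowest of its group for 33 of the 40 genes (22.9% of all genes) and replicate 1 the highest for 28 (28.8%). Leaving out 1 array at a time gave 0 to 2 called genes, with 2 when MCD replicate 4 or M+Fc-GLP-1 replicate 2 was left out. Macrophage markers were at 5.15 to 6.36 in M+Fc-GLP-1, with 4 of 8 lower than in MCD. Of the 8 neutrophil markers 2 were lower, S100a8 and S100a9, and 1 was higher, Ly6g. Their part was not tested, and slide and drug cannot be told apart.

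For M+Fc-GLP-1 against C+Fc-GLP-1 before PH, arrays that shared a slide, 5 of the 40 genes were higher and 0 lower, with 10.4% of all genes called, 5.34% higher and 5.02% lower. The 5 were Cdc20 (2.48 ± 0.71, adjusted p = 0.0229), Birc5 (2.27), Plk1 (2.05), Cdca3 (1.92) and Ube2c (1.80), so 3 of the 4 tested genes that act with the APC/C were among them. The median of the 40 was 1.19, against 0.03 over all genes, and 36 of 40 were positive. Among the 17 genes above background everywhere 3 rose, with a median of 0.65, and without the filter 1 of 49 rose, Cdc20 (2.51% of all genes). Birc5 levels were -1.17, -1.0, -1.49 and -0.88 in C+Fc-GLP-1 and 2.58, -0.01, -0.37 and 2.35 in M+Fc-GLP-1, without overlap. For Cdc20, replicate 3 of M+Fc-GLP-1 (-1.44) lay inside the C+Fc-GLP-1 range and the other 3 far above it. Omitting M+Fc-GLP-1 replicate 3 gave 11 called genes, against 0 without replicate 4, 2 without replicate 1, 3 without replicate 2, and 1 without C+Fc-GLP-1 replicate 1, 2 or 3. Macrophage markers were at 5.72 to 6.41 in C+Fc-GLP-1 and at 5.15 to 6.36 in M+Fc-GLP-1, with 0 of 8 higher and 1 lower. The part of these cells was not tested.

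Whether the diet difference was smaller under the drug was tested by the interaction of diet and drug before PH, from which a slide difference cancels if it adds equally to both diets. No gene of the 40 was called (0 at the adjusted threshold), where 6.14% of all genes were, 3.58% positive and 2.56% negative. An unadjusted p under 0.05 was found for 12 of the 40, against 23.8% of all genes. The median interaction was -0.93, against 0.15 over all genes, with 37 of 40 negative. Mki67, above background on every array, had an interaction of -2.34 (adjusted p = 0.0775). The smallest adjusted p of a member (0.0611) was that of Top2a, for which 3 of the 4 groups were below background on every array, so its size is not given. A smaller diet difference under Fc-GLP-1 was therefore not shown for any member. The count was 8 when arrays were centred on their median, which itself moves the median interaction of all genes by -0.62.

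**Figure D3:**
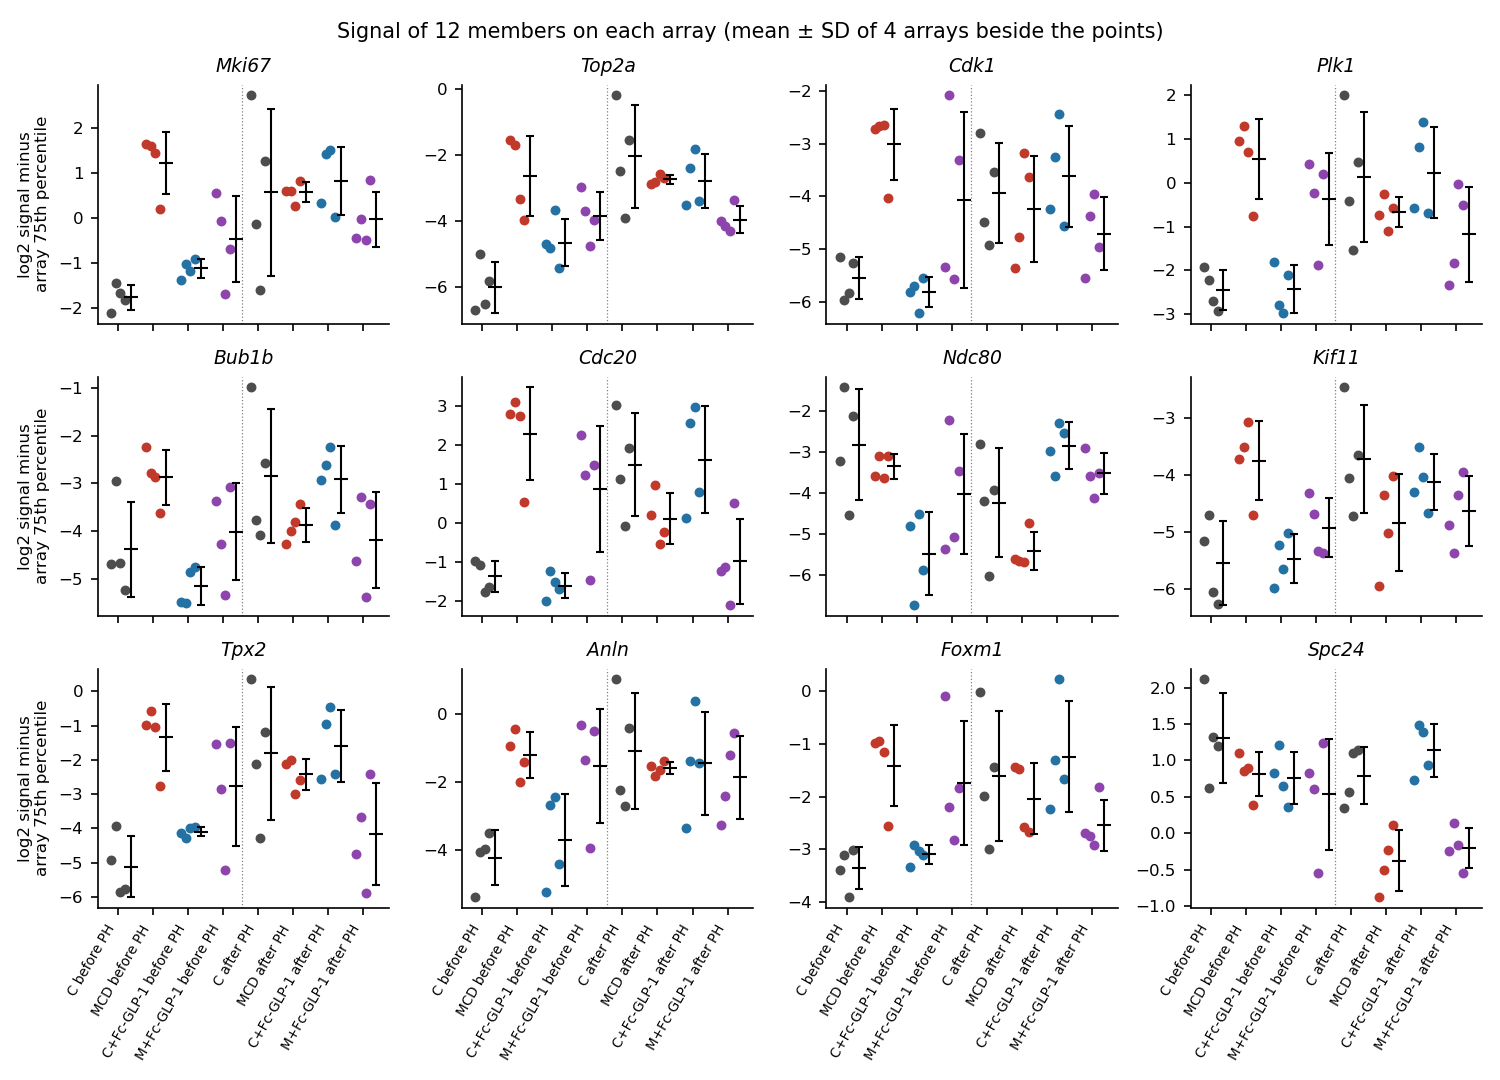
Levels of 12 members on every array (log2 signal minus the array's 75th percentile, 4 points per group) with the group mean ± SD beside them, and a dotted line between the groups before and after PH. Mki67, Plk1, Cdc20 and Tpx2 are low in both chow groups before PH and high in MCD before PH, whereas Spc24 is lowest in the 2 MCD groups after PH.

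The next comparisons set the liver 2 weeks after PH against the liver of the same arm before it. In the C arm 26 of the 40 genes rose and 0 fell, where 14% of all genes were called, 6.1% higher and 7.9% lower. The median was 1.85, against -0.08 over all genes. Of the 17 genes above background everywhere 11 rose (4.60% of all such genes), with a median of 1.81, and without the filter 24 of 49 rose (3.1% of all genes). The groups did not overlap for 21 of the 40, against 7.70% of all genes.

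Top2a rose in the C arm to -0.19, -2.47, -3.91 and -1.56 after PH from the levels below background given above, at least 6.71-fold (adjusted p = 0.000123). Its lowest array after PH still exceeded every C array before PH. Pbk, at -1.01, -2.86, -4.68 and -1.59, was at least 5.02-fold higher. Prc1 rose by 3.40 ± 0.68 (adjusted p = 0.00160) and Cenpe by 3.17. Cdc20 stood at 3.04, 1.13, -0.08 and 1.93 after PH, all above the C arrays before PH, a rise of 2.87 ± 0.71 (adjusted p = 0.00813), and Plk1 at 2.00, -0.42, -1.52 and 0.47, also apart, a rise of 2.57 ± 0.62. Mki67, at 2.73, -0.13, -1.60 and 1.28, overlapped the C arrays before PH through replicate 3 and rose by 2.34 ± 0.57 (adjusted p = 0.00716). All 4 cytokinesis genes rose, Anln by 3.14 and Cep55 by 2.40 ± 0.47, as did Kif11 (1.82), Tpx2 (3.31) and Foxm1 (1.73). Cdk1 (at least 1.90-fold, adjusted p = 0.0720) and Bub1b (1.54, adjusted p = 0.0715) did not pass, and Ndc80 (-1.41), Spc24 (-0.52) and Pttg1 (-0.31) were not higher.

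The C livers after PH differed widely among themselves in the mitotic genes. Replicate 1 was the highest for 36 of the 40 genes (23.4% of all genes) and replicate 3 the lowest for 38 (20.2%). Without replicate 1 after PH the count was 13 in place of 26, and fitting the 2 groups alone also gave 13. Without that array Mki67 (adjusted p = 0.0511), Kif11 (0.0575), Anln (0.0658) and Foxm1 (0.169) were among the genes that no longer passed, and the Foxm1 call was lost as well without replicate 4 after PH or replicate 1 or 3 before PH. Stellate cell markers (5.14, 2.96, 2.35 and 3.52 on replicates 1 to 4) and biliary and progenitor markers (5.70, 2.67, 1.72 and 2.85) had the same order of arrays as the median of the mitotic genes, with replicate 1 far above the others, and 1 of 6 and 0 of 5 of them were called higher than before PH. Macrophage markers were also highest in replicate 1 (8.77) and lowest in replicate 3 (6.60), with replicates 2 (7.64) and 4 (7.46) between, and were higher than before PH for 8 of 8 markers, while neutrophil markers rose from 2.25 to 2.97 to 3.54 to 5.13 (3 of 8 called) and 2 of 7 hepatocyte markers were lower. Raw intensity ran that way as well, with a 75th percentile of 778, 557, 472 and 746 on replicates 1 to 4. What these cells and the array brightness contribute was not tested, and slide, scanner and time cannot be told apart in this arm.

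In the C+Fc-GLP-1 arm few genes passed, although nearly all had higher means after PH. Of the 40, 7 rose and 0 fell, where 0.838% of all genes were called, 0.481% higher and 0.357% lower. The median was 1.98, against -0.00 over all genes, 39 of 40 were positive, and 31 had an unadjusted p under 0.05 against 15.3% of all genes. The arrays before and after PH did not overlap for 27 genes higher after PH, against 4.87% of all genes. The called genes were Pbk (at least 5.17-fold), Cdc20 (3.22 ± 0.71, adjusted p = 0.0312), Prc1 (2.92), Ube2c (2.69), Plk1 (2.66), Ndc80 (at least 3.26-fold) and Cdca3 (2.43). Over 16 alternatives the call was lost in 5 for Cdc20, 7 for Pbk, 8 for Ndc80 and 9 each for Prc1 and Plk1. Cdc20 was at 0.13, 2.56, 2.99 and 0.81 after PH, replicates 2 and 3 high and all 4 above every array before PH. Ndc80 was at -2.98, -3.60, -2.29 and -2.53, above background on all 4 arrays, having been below it on all 4 before PH. Of the 17 genes above background everywhere 3 rose, with a median of 1.19, and without the filter 13 of 49 rose (0.425% of all genes). The count fell to 0 without C+Fc-GLP-1 replicate 1 or 4 before PH or replicate 3 after PH, to 2 without replicate 2 before PH or 1 or 2 after PH, and to 3 without replicate 3 before PH. Slide and time cannot be told apart, nor can the agent if it changed after surgery, as the source names give. Macrophage markers were at 7.22 to 8.03 after PH (1 of 8 called higher), and their part was not tested.

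In the MCD arm the mitotic genes did not rise after PH. Of the 40, 0 were higher and 4 lower, where 9.46% of all genes were called, 6.22% higher and 3.24% lower, and the median was -0.81, against -0.03 over all genes. Kif20a fell by 2.06 on the log2 scale, from 0.78, 0.09, 0.28 and -0.95 to -1.62, -1.73, -2.43 and -2.26 (adjusted p = 0.0185). No array after PH reached the lowest before it, and the adjusted p was 0.0506 to 0.0651 without MCD replicate 1 or 3 before PH or 3 after PH. Ndc80 was at -5.61, -5.66, -5.68 and -4.73 after PH, below background on all 4, at least 1.97-fold lower (adjusted p = 0.0402), a call lost in 10 of 16 alternatives, with adjusted p up to 0.313, among them the omission of any MCD array before PH or of replicate 1, 2 or 3 after PH. Spc24 fell from 1.10, 0.86, 0.89 and 0.39 to -0.87, -0.51, -0.22 and 0.11 (-1.18 ± 0.32, adjusted p = 0.0193), also without overlap. Cdc20 was at 0.22, 0.98, -0.52 and -0.21 (-2.18 ± 0.71, adjusted p = 0.0498), and its call was lost in 12 of 16 alternatives. Mki67, at 0.60, 0.60, 0.28 and 0.83, differed by -0.64 (adjusted p = 0.537) and remained above every C array before PH. The count was 0 without MCD replicate 1 before PH, 1 without MCD replicate 3 before PH or 1 or 3 after PH, 2 without replicate 2 before or after PH, and 10 when the 2 groups were fitted alone. Without the filter it was 2 of 49, Kif20a and Spc24 (1.24% of all genes lower). Neutrophil markers rose in this arm, from 2.51 to 4.59 before PH to 5.80 to 7.49 after it, with 7 of 8 called, and their part was not tested. Slide, scanner and time cannot be told apart.

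In the M+Fc-GLP-1 arm 0 of the 40 genes passed in either direction, where 1.71% of all genes were called (0.823% higher, 0.89% lower), and 6 had an unadjusted p under 0.05 against 16% of all genes (limma, smallest adjusted p of a member 0.159, for Kif20b). The median was -0.63, against -0.03 over all genes, and the authors' normalized values, which run across 2 normalizations over time, gave 0.21 and 2 called genes. Cdc20 was at -1.22, -1.11, -2.09 and 0.52 after PH, replicate 4 highest, and differed by -1.86 ± 0.71 (adjusted p = 0.178). Mki67 was at -0.44, -0.03, -0.50 and 0.84, and differed by 0.44.

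**Figure D4:**
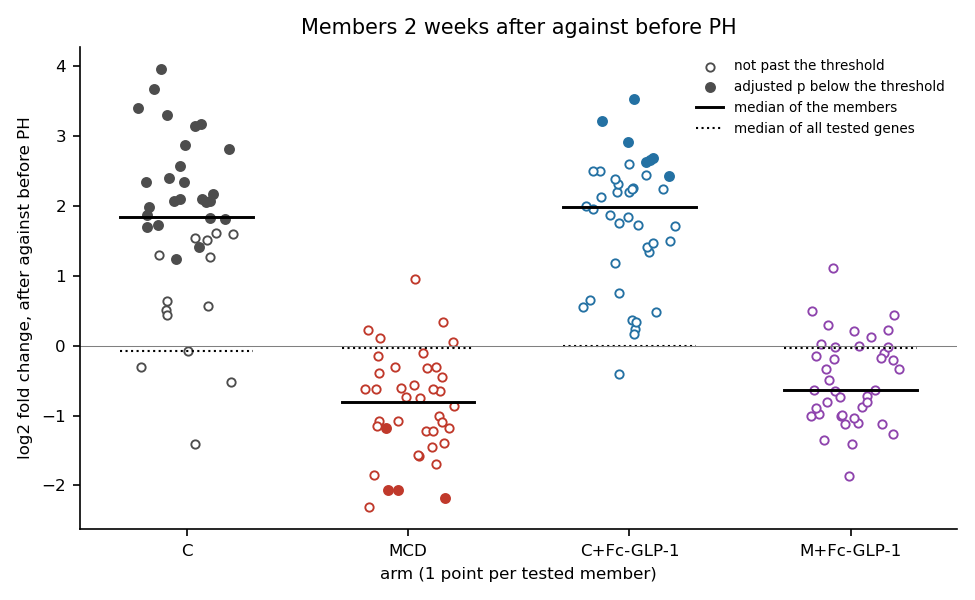
Log2 difference 2 weeks after PH against before PH in each arm, 1 point for each of the 40 tested genes, filled where past the adjusted threshold, with the median of these genes (line) and of all genes tested (dotted). The medians are 1.85 for C, 1.98 for C+Fc-GLP-1, -0.81 for MCD and -0.63 for M+Fc-GLP-1.

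Whether the change over PH differed between diets could be tested free of an additive slide difference only under Fc-GLP-1, where both diets shared a slide at each time. Of the 40, 0 were higher and 1 lower in M+Fc-GLP-1, and 0.0952% of all genes were called, 0.0476% in each direction. That was Cdc20, with a difference of changes of -5.08 ± 1.01 (adjusted p = 0.0432): it rose by 3.22 on chow and had a change of -1.86 on MCD. Its adjusted p ran from 0.00236 to 0.134 over 24 alternatives, of which 17 were past the threshold no longer. The median over the 40 was -2.50, against -0.03 over all genes, 39 of 40 were negative, and 29 had an unadjusted p under 0.05, against 9.70% of all genes. Over the 17 genes above background everywhere the median was -1.64 against 0.02. Omitting replicate 3 of M+Fc-GLP-1 before PH gave 8 called genes, omitting replicate 4 of that arm after PH gave 3, and each of the other arrays 0, except C+Fc-GLP-1 replicates 1 and 4 after PH with 1. The cyclins Ccnb1 (-5.32 ± 1.03) and Ccnb2 (-3.46 ± 0.70) passed as well, and no DNA replication gene of 21 did (0 called, median -0.32).

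Among the livers after PH, diet and drug were compared at 1 time. Without drug, MCD against C gave 0 higher and 1 lower of the 40, with 12.1% of all genes called (6.04% higher, 6.09% lower), and a median of -0.60 against -0.03. The 1 gene was Spc24, at 0.35, 0.57, 1.10 and 1.14 in C and at the MCD levels above, without overlap (-1.16 ± 0.32, adjusted p = 0.0170), and it was the 1 gene lower without the filter too (2.59% of all genes). Its adjusted p was 0.0605 to 0.0698 when C replicate 3 or 4 or MCD replicate 1 was omitted. Cdc20 differed by -1.39 and Mki67 by 0.01, neither past the threshold. Drug on chow gave 0 higher and 1 lower, with 2.08% of all genes called (1.14% higher, 0.938% lower) and a median of 0.09, and the gene was Cep55. It was at -1.26, -0.82, -3.66 and -1.59 in C and -3.01, -4.22, -4.41 and -2.87 in C+Fc-GLP-1, overlapping through C replicate 3 (-1.80 ± 0.47, adjusted p = 0.0402), and its call was lost in 9 of 16 alternatives, among them the omission of C replicate 1, 2 or 4 or C+Fc-GLP-1 replicate 2 or 3. Leaving out 1 array moved that median from -0.42 to 0.60. Drug on MCD gave 0 called genes of the 40 (smallest adjusted p 0.0626 for Cep55), with 6.5% of all genes called, 3.71% higher and 2.78% lower, and a median of -0.54. An unadjusted p under 0.05 was found for 11 of the 40, against 22.2% of all genes. Ndc80 stood out there in the other direction, at -2.91, -3.58, -4.12 and -3.51 in M+Fc-GLP-1, higher than every MCD array, all of them below background, and at least 1.75-fold higher (adjusted p = 0.0719). In these 3 comparisons slide and group cannot be told apart.

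On the shared slide, M+Fc-GLP-1 against C+Fc-GLP-1 after PH, 0 of the 40 genes were higher and 12 lower, where 12.8% of all genes were called, 6.19% higher and 6.62% lower. The median was -1.31, against -0.01 over all genes, and 38 of 40 were negative. Of the 17 genes above background everywhere 6 fell (6.87% of all such genes), with a median of -1.30, and without the filter 9 of 49 were lower (2.94% of all genes). The 12 spread over most roles: Cdc20 (-2.60), Tpx2 (-2.59), Prc1 (-2.40), Cdca2 (-2.36), the kinetochore genes Nuf2 (-2.36), Cenpe (-2.20) and Spc24 (-1.34), Kif20a (-2.12), Melk (-2.10), Racgap1 (-1.83), Aurka (-1.65) and Ncaph (-1.42). In M+Fc-GLP-1 after PH, Cdca2, Nuf2 and Melk were above background on 1 of 4 arrays and Tpx2 on 2, so the sizes of these differences are imprecise. Spc24 had the smallest adjusted p (0.00571), with levels of 0.74, 1.49, 1.39 and 0.93 in C+Fc-GLP-1 and -0.24, 0.14, -0.16 and -0.54 in M+Fc-GLP-1. Its groups did not overlap, nor did those of Kif20a, Racgap1, Ncaph and Pbk, the last not past the threshold (-1.98, adjusted p = 0.106), and these 5 of the 40 compare with 8.48% of all genes lower without overlap. For Cdc20 the levels given above overlapped through M+Fc-GLP-1 replicate 4 and C+Fc-GLP-1 replicate 1 (-2.60 ± 0.71, adjusted p = 0.0142). Tpx2 was at -2.54, -0.94, -0.46 and -2.41 in C+Fc-GLP-1 and -4.75, -3.66, -5.88 and -2.40 in M+Fc-GLP-1, overlapping at 1 array (-2.59 ± 0.80, adjusted p = 0.0306).

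For other members the difference was small or not past the threshold. Mad2l1 differed by 0.28, although its 2 dimmer probes differed by -0.65 and -0.74. Kif20b differed by 0.12 and Anln by -0.42. Mki67 differed by -0.86 (adjusted p = 0.376), with C+Fc-GLP-1 levels of 0.33, 1.43, 1.52 and 0.03, and a second Mki67 probe differed by -1.33. The 12 calls became 2 when C+Fc-GLP-1 replicate 3 was omitted, 3 for M+Fc-GLP-1 replicate 3, 5 for C+Fc-GLP-1 replicate 2 or M+Fc-GLP-1 replicate 1, and 7 for M+Fc-GLP-1 replicate 2. The cyclins Ccnb1 (-2.54) and Ccnb2 (-1.75) were lower as well, but Ccne1 was higher by 2.89 and the replication licensing factor Cdt1 by 1.02, and of 21 replication genes 2 were higher and 0 lower. Macrophage markers ran from 7.05 to 7.46 in M+Fc-GLP-1 and from 7.22 to 8.03 in C+Fc-GLP-1 (2 of 8 lower), and B cell markers from 0.18 to 1.57 and from 1.59 to 2.45 (3 of 6 lower). Biliary and progenitor markers stood apart on C+Fc-GLP-1 replicate 1 (6.14), where the median of the mitotic genes was the lowest of its group, and on M+Fc-GLP-1 replicate 4 (5.94), where it was the highest. Their part was not tested.

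Within groups most members rose and fell together from liver to liver. After each group's mean was taken out, the correlation of a member with the mean of the other tested members over the 32 arrays had a median of 0.80, and 20 of the 40 were over 0.8, Cenpe highest at 0.95. For all genes the median correlation with the same mean was -0.06. These arrays share depth and slide, and the values are a description. The 8 members under 0.5 were Pttg1 (0.05), Cep55 (0.14), Spc24 (0.19), Cenpa (0.20), Ndc80 (0.38), Hmmr (0.44), Cdk1 (0.48) and Kif20b (0.49). The named genes outside the list most like the members were Ccna2 (0.92), Sgo1 (0.92), the shugoshin of centromeres, Ckap2l (0.90), Ccnb2 (0.87), Ccnb1 (0.87) and Sapcd2 (0.86), over the same 32 arrays.

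**Figure D5:**
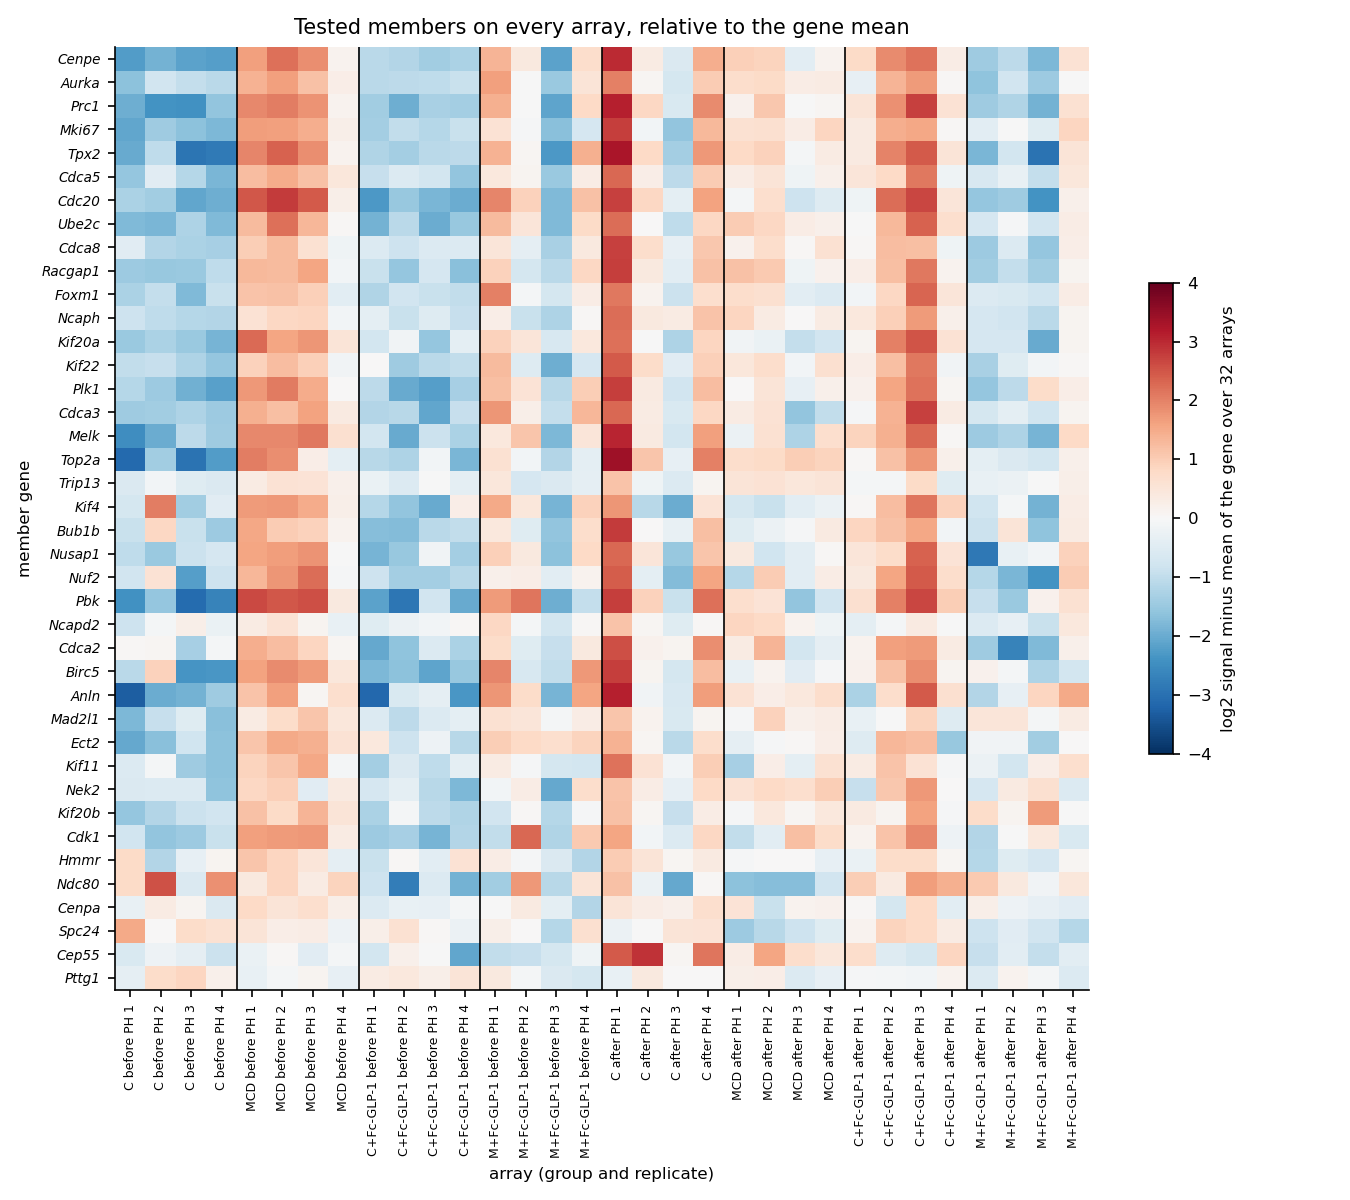
Level of each of the 40 tested genes on each of the 32 arrays relative to that gene's mean over all arrays (log2, red above and blue below), genes ordered by how closely they followed the other members within groups. Columns vary as blocks, with C after PH replicate 1 dark red and M+Fc-GLP-1 before PH replicate 3 mostly blue, and the lowest rows (Ndc80, Cenpa, Spc24, Cep55, Pttg1) depart from the rest.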

How the data were processed

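Total RNA from 32 liver samples was hybridised by the authors to 1-colour Agilent mouse arrays, 62976 spots each, and the deposited scanner files hold processed signal intensity per spot, background-subtracted by Feature Extraction. The authors also deposited log2 values normalized with limma, separately before and after PH, which served as an alternative only. Flagged spots and control spots were set aside, spots of a probe were averaged, and log2 intensity was taken minus each array's 75th percentile. A probe was kept if it lay well above background on 4 of 4 arrays in some group (28932 of 55681, 426 others dropped for flagged spots), and the brightest probe stood for its gene (21010 genes). All 8 groups were fitted together in limma 3.58.1 (R 4.3.3, lmFit and eBayes), with 12 pairwise comparisons and 2 interactions, Benjamini-Hochberg adjustment over all genes and a threshold of 0.05. The tables and figures were made with Python 3.11.15, numpy 2.4.6, pandas 2.3.3 and matplotlib 3.10.9. The fit was also run on simulated data with independent noise for each gene. That simulation held no genes moving together, slide differences or background floor, so it cannot speak to these.

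Where a probe was below background on every array of a group, the fold is a bound: the brighter group's mean against the mean of, per array, the higher of the dim probe's own signal and the lowest signal among probes above background. The members and all gene lists were chosen with earlier results of these data known. The genes given array by array were 13 chosen by role, with up to 3 more per direction and comparison by size of the called difference, and further members are named beside them by role after their values were seen. Within a group the replicates are separate livers (4 mice per group in the paper), and 4 per group limit the precision. Samples before and after PH may share mice, and the fit treats them as unpaired.

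The fit has no block, because the labels do not tie replicate numbers to shared animals or batches. Residual correlations of same-numbered arrays ran from -0.221 to 0.517 (mean 0.0173 over 112 pairs). For arrays with different numbers the mean was -0.0053 over 336 pairs. Pairs were pooled over all 8 groups, so most join arms that differ in diet or drug. These means therefore cannot show whether a mouse gave both samples of an arm, and pairing within arms was not tested. Alternatives were normexp background correction (offset 50) with quantile normalization, centring on the median or on the 75th percentile of probes above background everywhere, no filter, the mean over a gene's probes, the authors' values, the replicate number as a block, a fit restricted to the groups compared, and each array left out. Promoters are from RefSeq.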

Additional observations from a re-analysis of the deposited data

Results flagged for a closer look

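In MCD before PH the lowest array, replicate 4 each time, stood apart from the other 3 for Cdc20 (0.55), Cdk1 (-4.03), Foxm1 (-2.55) and Mki67 (0.20), by a gap large for the range of its group. In MCD after PH the highest array stood apart for Ndc80 (-4.73), where no array of the group was above background. Such gaps come up by chance in about 1 of 20 groups, and 19 of the 320 combinations of a tested member and a group showed one (5.94%).

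The change of Cdc20 over PH under Fc-GLP-1 differed between the diets by -5.08 on the log2 scale (limma, adjusted p = 0.0432), as a test of the difference itself. It rested on M+Fc-GLP-1 arrays that varied widely before PH, from -1.44 to 2.26.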

How the results depend on the processing

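All values are numbers of the 40 members past the adjusted threshold, or of 49 without the filter. For MCD against C before PH the count was 29 and ran from 26 to 32 over the alternatives, 27 to 31 with 1 array left out.

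With normexp and quantile normalization the counts were 3 for C+Fc-GLP-1 against C before PH, 7 for M+Fc-GLP-1 against MCD before PH, 2 for M+Fc-GLP-1 against C+Fc-GLP-1 before PH, 4 for the same pair after PH, 0 for C+Fc-GLP-1 against C after PH, 2 for MCD and 11 for C+Fc-GLP-1 after against before PH, and 0 for diet by time. Centred on the median they were 5 for M+Fc-GLP-1 against MCD before PH, 2 for M+Fc-GLP-1 against C+Fc-GLP-1 before PH, 8 for diet by drug, 0 for MCD against C and for C+Fc-GLP-1 against C after PH, 4 for C+Fc-GLP-1 after against before PH, and 0 for diet by time. Centred on probes above background everywhere, C+Fc-GLP-1 after against before PH gave 11. Without the filter they were 3 for M+Fc-GLP-1 against MCD before PH, 1 for M+Fc-GLP-1 against C+Fc-GLP-1 before PH, 0 for C+Fc-GLP-1 against C after PH, 2 for MCD and 13 for C+Fc-GLP-1 after against before PH, and 0 for diet by time. With the authors' values they were 2, 4 and 1 for C+Fc-GLP-1 against C, M+Fc-GLP-1 against MCD and M+Fc-GLP-1 against C+Fc-GLP-1 before PH, 4 for the last pair after PH, 37 for C+Fc-GLP-1 and 2 for M+Fc-GLP-1 after against before PH, and 0 for diet by time. Over time those values run across separate normalizations, where 97.7% to 99.5% of all calls were higher and the all-gene median moved by 0.49 to 0.60. Fitting only the groups compared gave 0 for C+Fc-GLP-1 against C before and after PH, 3 for diet by drug, 4 for M+Fc-GLP-1 against MCD after PH, 13 for C and 10 for MCD after against before PH, and 0 for diet by time. The cause of these changes was not tested.

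Leaving out 1 array at a time gave 0 to 1 for C+Fc-GLP-1 against C before PH, 0 to 2 for M+Fc-GLP-1 against MCD before PH, 0 to 11 for M+Fc-GLP-1 against C+Fc-GLP-1 before PH and 2 to 13 after PH, and 0 to 1 for diet by drug. It gave 0 to 1 for each of MCD against C, C+Fc-GLP-1 against C and M+Fc-GLP-1 against MCD after PH. After against before PH it gave 13 to 30 for C, 0 to 4 for MCD, 0 to 10 for C+Fc-GLP-1 and 0 to 0 for M+Fc-GLP-1, and 0 to 8 for diet by time. With the replicate number as a block, C after against before PH gave 25 in place of 26 and no other count moved. That block ties same-numbered arrays of all arms together, so it does not stand for shared mice. On the pairing, 18 of the 32 arrays correlated best with an array of their own number, more than the share of pairs with the same number (112, against 336 with different ones) would give, which is a hint from the data, not the design. The best match could lie in another arm, so this count does not show shared mice either. Calls were followed through the alternatives for the 13 genes chosen by role and for up to 3 more per direction and comparison. Of these 39 calls, 0 reversed under any alternative and 14 held under every one. The other calls named in the text were not followed in this way.

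Centring on the median moved the all-gene median by over 0.1 in 10 comparisons: MCD against C before PH by 0.37, C+Fc-GLP-1 against C before PH by 0.30 (share of calls that were higher 46.0% to 89.7%), M+Fc-GLP-1 against MCD before PH by -0.32 (61.4% to 16.2%), M+Fc-GLP-1 against C+Fc-GLP-1 before PH by -0.26 (51.5% to 24.4%), diet by drug by -0.62 (58.3% to 5.75%), MCD against C after PH by 0.12 (49.8% to 61.9%), M+Fc-GLP-1 against MCD after PH by -0.13 (57.1% to 40.9%), C after against before PH by 0.16 (43.6% to 64.3%), C+Fc-GLP-1 after against before PH by -0.11 (57.4% to 36.8%) and diet by time by 0.21 (50% to 83.3%). In each chow group before PH, 23 of the 40 tested members were above background on all 4 arrays, and for the others the signal near background limits the precision.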
